A study of Homo sapiens with 6 samples.

Results

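The comparison of si-RAB23-1 with si-NC asked how the transcriptome of an oesophageal squamous carcinoma line shifts when 1 of the study's siRNAs against RAB23 is delivered. It covered the genes of the deposited expression table with an FPKM (read level per unit of gene length, relative to the library's total) of at least 1 in at least 2 of the 4 libraries of these groups. That was 13935 genes of the 58735 in the table. All cells were KYSE30, an established human cell line from an oesophageal squamous cell carcinoma, and all had been transfected with siRNA at 100 nM by the lipid reagent HiPerFect. The groups were si-NC, a control siRNA, with 2 libraries, si-RAB23-1 with 2, and si-RAB23-9, another siRNA against the same transcript, also with 2. RNA had been taken with Trizol near 80% confluence. The sources used here do not give the siRNA sequences or the time from transfection to harvest. The line is 1 cell line, and nothing in the labels says that the libraries of a group came from separate cultures, so p-values reflect only how far these libraries spread, and that spread may be technical.

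RAB23 is a small GTPase of the Rab family, the switch proteins that direct membrane vesicles between compartments. It is best known for restraining Hedgehog signalling, and acts at or near the primary cilium. An siRNA is a short duplex whose guide strand, held by an Argonaute protein, directs cleavage of a fully matched transcript. A guide can also lower other transcripts when its seed, the bases near its 5′ end, pairs with their 3′ untranslated regions (3′ UTRs), as a microRNA does.

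Of the 13935 genes, 12523 were at 1 FPKM or more in all 4 libraries, 166 entered only through both si-RAB23-1 libraries and 191 only through both si-NC libraries. Recovered reads came to 24178125 and 19752125 with si-NC and to 17211025 and 22789183 with si-RAB23-1. Spearman correlations across genes were 0.9847 and 0.9827 between the libraries of these groups. Of 8 markers of squamous epithelium 7 were at the level compared, among them KRT14, KRT6A, TP63, DSG3, PERP and SOX2. The rest of the set was KRT5 and SFN, of which 1 was below it. The keratin genes KRT7, KRT8, KRT18 and KRT19, which are not in this set, were at the level compared too. Summed over the 8, the level was 440 and 429.6 FPKM in the control libraries against 501.4 and 514 after si-RAB23-1. Leukocyte markers (0.7818 to 0.866 FPKM in sum) and simple columnar markers (0.2546 to 0.4494) were near 0 in all 4 libraries, and fibroblast markers summed to 3.44 to 3.526, with 1 of 7 at the level compared. Endothelial markers summed to 3.957 and 3.922 FPKM with si-NC and to 1.712 and 2.218 with si-RAB23-1, and CDH5, a cadherin gene, was the only one of the 5 at this level (log2 fold change -0.77, limma adjusted p up to 0.0736 without either si-NC library). The part of these markers in the results was not tested.

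The targeted transcript was lower. RAB23 (ENSG00000112210, chromosome 6, 57186992 to 57222314) read 3.27 and 3.33 FPKM in the si-NC libraries, 1.03 and 1.10 in the si-RAB23-1 libraries and 1.18 and 1.27 in the si-RAB23-9 libraries. These rested on 384 and 321, 84 and 120, and 110 and 111 reads. The groups treated with a RAB23 siRNA did not overlap the control. On the log2(FPKM + 1) scale, which is used for all changes below and understates those of low genes, the difference between si-RAB23-1 and si-NC was -1.06 (SE 0.081, limma adjusted p = 0.00314), and the mean level was 0.322 times that of the control. The 2 RAB23 siRNAs were not called different (limma adjusted p = 0.383).

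Changes were many and mostly small. By limma with Benjamini-Hochberg adjustment over 14352 genes tested in all 6 libraries, 1166 of the 13935 genes rose and 1041 fell after si-RAB23-1 at an adjusted p under 0.05. Over all genes tested the shares were 8.13% higher and 7.26% lower. The median change was 0.296 among the higher and -0.3582 among the lower genes, and 599 and 355 of them moved by less than 0.3. By 1 log2 unit or more 24 of the 13935 genes rose and 17 fell, and 10 and 11 of these averaged under 20 recovered reads in the 4 libraries. Over all 14352 genes tested, 24 rose by that much (0.167%) and 18 fell (0.125%). Protein-coding genes made up 1059 of the higher and 952 of the lower genes. Shares of calls differed by level: among 2880 genes under 2 FPKM in control cells 1.979% were higher and 1.042% lower, and among 2030 genes at 20 to 100 FPKM 15.27% and 11.03%. With voom on the recovered reads and library totals, 1617 genes were higher and 2165 lower, so that higher genes made up 42.8% of the calls and not 52.8%. Leaving out si-NC replicate 1 gave 205 higher and 182 lower genes, and leaving out si-NC replicate 2 gave 173 and 163. Without si-RAB23-1 replicate 1 they were 530 and 538, and without 1 or the other si-RAB23-9 library 640 and 641 higher and 610 lower each time. In all, 134 higher and 131 lower genes stayed called with each of the 6 libraries left out in turn, and the genes described below belong to these unless a loss is stated. Counts of called genes within the lists below are to be read beside the shares over all genes tested, 8.13% higher and 7.26% lower. These counts rest on single libraries too. Of 50 lists, the count of higher members moved by more than 1.5 times, or to or from 0, in 32 without si-NC replicate 1 and in 35 without si-NC replicate 2, and the count of lower members in 36 and 38. For some of the lists below, the counts with a control library left out are given beside them, and for the rest they are not.

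**Figure D1:**
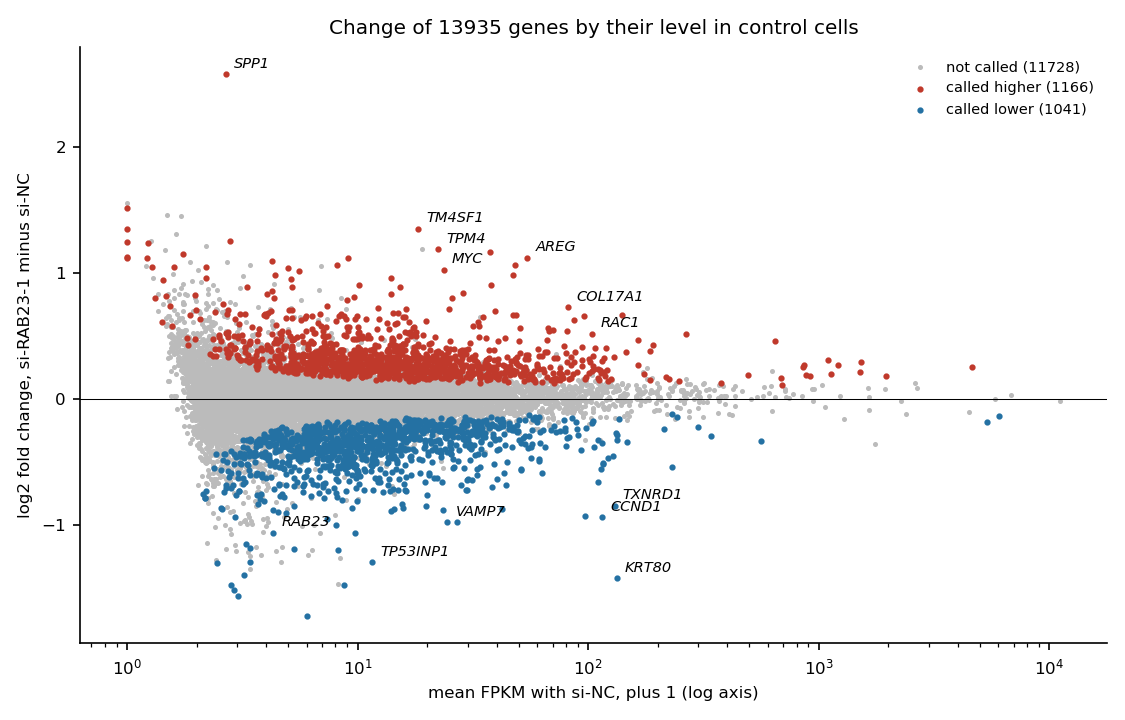
Each point is 1 of the 13935 genes, at its mean FPKM with si-NC plus 1 (log axis) and its log2 fold change with si-RAB23-1, with 1166 genes called higher in red, 1041 called lower in blue and 11728 not called in grey. SPP1 stands highest at 2.58, KRT80 lies at -1.42 among abundant genes, and several of the points past 1 or -1 at the left edge rest on fewer than 20 reads per library.

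SPP1, a gene of a secreted matrix protein, had the largest rise among called genes with a mean of at least 20 reads. SPP1 (chromosome 4, 87975650 to 87983426) encodes osteopontin, a secreted phosphoprotein of matrix and body fluids. It read 1.62 and 1.72 FPKM in control libraries against 15.4 and 14.6 in si-RAB23-1 libraries, and 2.90 and 3.62 with si-RAB23-9. The si-RAB23-1 libraries stood far above all 4 others, 8.97 times the control mean (log2 fold change 2.58, SE 0.089, limma adjusted p = 0.000975). THBS1 (thrombospondin 1, an adhesive glycoprotein) rose from 43.8 and 48.2 to 94.5 and 90.0 FPKM, a change of 0.99. FN1, the gene of fibronectin, went from 12.4 and 13.5 to 22.95 and 25.1 FPKM (0.84). MGP, which encodes an inhibitor of calcification in matrix, rose by 1.02 and COL17A1, the transmembrane collagen of hemidesmosomes, by 0.73. Among 22 matricellular and matrix genes at this level, 11 rose and 4 fell, with a median of 0.1273 against 0.008331 over all genes tested. With si-NC replicate 1 left out 8 were higher and 1 lower, and with si-NC replicate 2 left out 7 and 0. The lower ones were TNC (tenascin C, -0.51), SPARC (-0.50), COL12A1 (-0.37) and the laminin chain gene LAMB1 (-0.18). Without si-NC replicate 2 their limma adjusted p was 0.0592, 0.141, 0.102 and 0.185. TNC and COL12A1 were also lost without si-RAB23-1 replicate 1, COL12A1 without si-NC replicate 1, and SPARC and LAMB1 without any other library but si-RAB23-1 replicate 2.

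A pair of matricellular genes that respond to YAP and TEAD factors rose as well. CTGF (CCN2) read 7.61 and 8.51 FPKM in control libraries against 20.1 and 17.3 after si-RAB23-1, a log2 fold change of 1.12 (SE 0.086, limma adjusted p = 0.00309). CYR61 (CCN1) went from 47.5 and 46.7 to 108 and 91.9 FPKM (1.07, SE 0.077, limma adjusted p = 0.00282). With si-RAB23-9 they read 6.09 and 5.69, and 34.4 and 35.6 FPKM, below the control in every library. The whole list of 21 YAP and TEAD targets was divided, with 9 higher and 5 lower genes, or 4 and 0 without si-NC replicate 1 and 5 and 0 without si-NC replicate 2. IGFBP3, which encodes a binding protein of insulin-like growth factors, and the Hippo scaffold gene WWC1 rose by 0.57 and 0.48. F3, the gene of tissue factor, rose by 0.63 (limma adjusted p = 0.0517 without si-NC replicate 1). NT5E, the ecto-5′-nucleotidase CD73, fell by 0.44 (limma adjusted p = 0.0714 and 0.065 without si-NC replicate 1 and 2). In the direct test between the siRNAs, 12 of the 21 were higher with si-RAB23-1 than with si-RAB23-9 and 0 were lower.

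**Figure D2:**
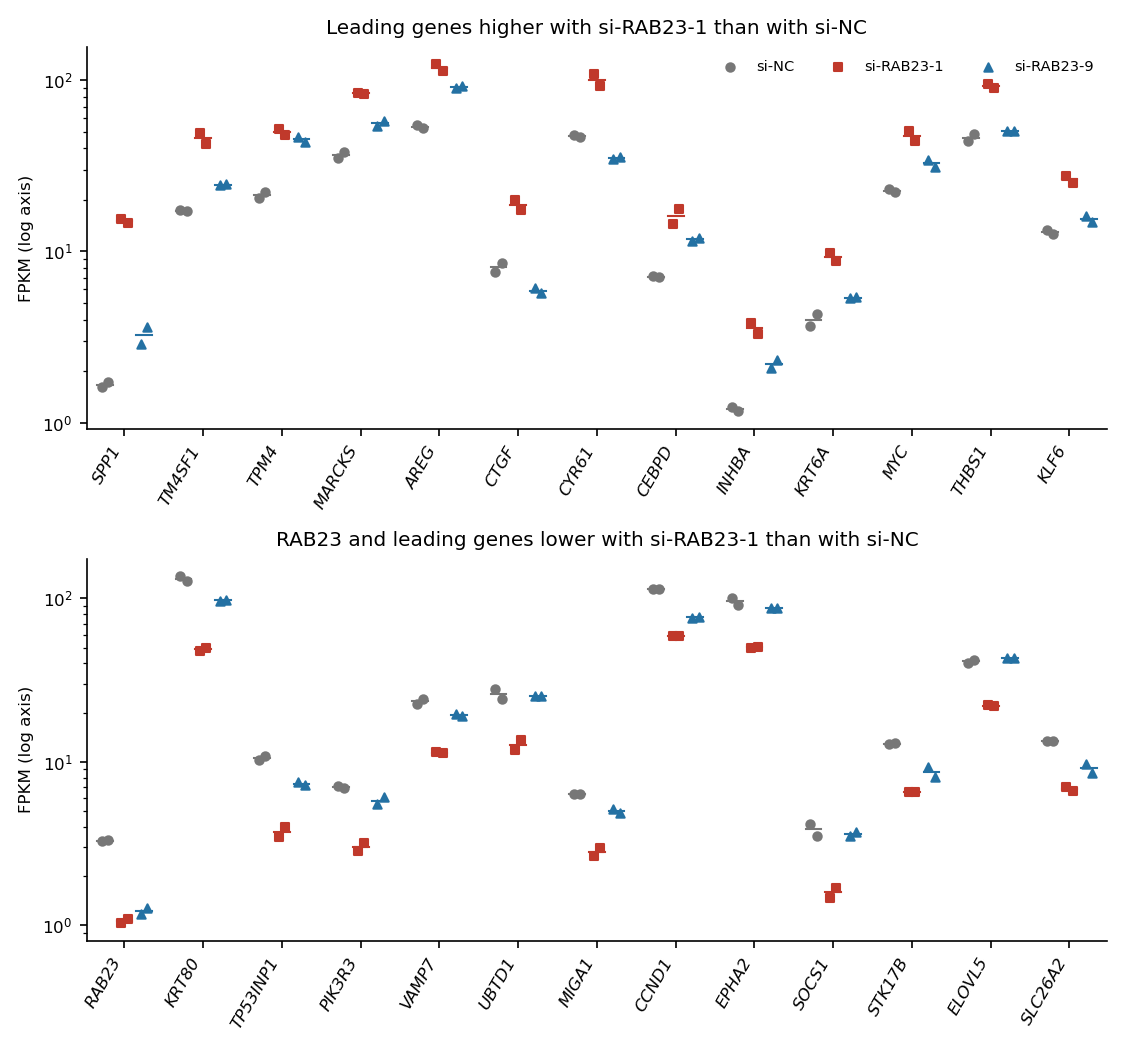
Each point is the FPKM of 1 library (log axis) and each short line a group mean, for si-NC (grey circles), si-RAB23-1 (red squares) and si-RAB23-9 (blue triangles), 2 libraries each. The si-RAB23-1 libraries lie apart from the control libraries for every gene shown, and for CTGF and CYR61 the si-RAB23-9 libraries lie on the other side of the control.

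A pair of EGF receptor ligand genes were higher, while most genes of the receptor family and its ligands were not called. AREG (chromosome 4, 74445134 to 74455009) encodes amphiregulin, a ligand of the EGF receptor. Its level was 54.5 and 52.4 FPKM in control cells and 123 and 112 after si-RAB23-1 (log2 fold change 1.13, SE 0.052, limma adjusted p = 0.00184). The neighbouring ligand gene EREG (epiregulin) rose from 8.43 and 8.85 to 17.4 and 14.5 FPKM (0.81). The receptor gene EGFR itself read 163 and 162 against 167 and 159 FPKM and was not called. Of 16 EGF receptor family and ligand genes, 3 rose (18.75%), 0 fell and 13 were not called, and the median was 0.04878.

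Immediate early genes, whose transcription follows growth signals early and without new protein synthesis, included many higher genes. Of 16 at this level, 10 were higher (62.5%) and 0 lower, with a median of 0.3378, and 6 were not called, 2 of them with a fold change below 0. The 10 became 6 without si-NC replicate 1, 5 without si-NC replicate 2, and 6 when si-RAB23-1 replicate 1 was left out. MYC, a proto-oncogene that drives growth and ribosome production, rose from 23.1 and 22.1 to 50.2 and 44.3 FPKM (log2 fold change 1.03, SE 0.073, limma adjusted p = 0.00272). KLF6, a zinc finger factor gene, went from 13.3 and 12.7 to 27.6 and 25.01 FPKM (0.97), and the AP-1 subunit gene JUN from 17.1 and 16.6 to 24.9 and 24.8 (0.53). CEBPD, a factor gene of the C/EBP family that is not in this list, rose by 1.07. FOS stayed at 1.73 to 2.35 FPKM in all 4 libraries and was not called. The ERK feedback list holds targets of ERK signalling as well as genes that restrain it. It was mixed, with 3 of 16 higher and 4 lower. DUSP5, a nuclear ERK phosphatase gene, rose by 0.53, and the ETS factor genes ETV4 (-0.39) and ETV5 (-0.32) were lower. Without si-NC replicate 2 their limma adjusted p was 0.0611, 0.0672 and 0.0696, and that of ETV5 was 0.0669 without si-NC replicate 1.

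Ribosome biogenesis genes, a classical target group of MYC, had 20 of 41 members higher and 0 lower, and their median was 0.2154. Only 3 and 4 were higher with si-NC replicate 1 and 2 left out, 8 without si-RAB23-1 replicate 1 and 13 without either si-RAB23-9 library. NOLC1, which encodes a nucleolar phosphoprotein, rose from 36.2 and 37.7 to 73.1 and 67.2 FPKM (log2 fold change 0.90, SE 0.049, limma adjusted p = 0.00184). ODC1, the ornithine decarboxylase of polyamine synthesis, rose from 45.3 and 46.9 to 75.6 and 72.0 FPKM (0.67). RRP12 (0.48) and NOP16 (0.46), ribosome assembly genes, had a limma adjusted p of 0.0519 without si-NC replicate 2 and of 0.0504 without si-NC replicate 1. Among cytosolic ribosomal protein genes 1 of 63 was higher and 0 lower, with a median of 0.05363, and translation factors had 5 of 27 higher and 0 lower. The E-box CACGTG, the sequence MYC and MAX recognise, is its own reverse complement, so that 1 search covers both strands. It lay in the promoters (250 bases before to 50 after the start, RefSeq on GRCh38.p14) of 12 of 33 ribosome biogenesis genes that matched, 36.4%, against 10.4% of the 9277 matched promoters of the genes compared here and 7.26% of all 35116. Of these 12 genes, 7 were called higher and 5 were not called. Over all genes compared, the E-box lay in 12% of the promoters of higher genes and 10.3% of those of lower genes, and immediate early genes (30.8% of 13) and double-stranded RNA sensors (30% of 10) had shares near that of the list. The list was drawn up as MYC targets, so its share is no independent finding. Windows of called genes show where it sits, in capitals, close to the transcription start:
NAT10, chr11:34105604-34105629, plus strand: tgcgcttgcgCACGTGctgtctacca
PES1, chr22:30591882-30591907, minus strand: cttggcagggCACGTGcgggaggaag
RRP9, chr3:51941894-51941919, minus strand: gttcagctgcCACGTGagttctgcgg
UTP20, chr12:101280085-101280110, plus strand: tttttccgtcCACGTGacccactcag
NAT10, PES1, RRP9 and UTP20 were higher by 0.33, 0.30, 0.32 and 0.21. Without si-NC replicate 1 their limma adjusted p was 0.093, 0.0609, 0.0502 and 0.183. NAT10, RRP9 and UTP20 were also lost without si-NC replicate 2 or si-RAB23-1 replicate 1, and RRP9 and UTP20 without either si-RAB23-9 library. A match of letters is a description and shows no binding.

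Among actin cytoskeleton genes TPM4 had the largest rise, and about as many were not called as called. TPM4 (chromosome 19, 16067021 to 16103005) encodes a tropomyosin that coats actin filaments. It read 20.5 and 22.2 FPKM in control libraries and 51.9 and 48.0 in si-RAB23-1 libraries (log2 fold change 1.19, SE 0.062, limma adjusted p = 0.00184), and 46.6 and 43.7 with si-RAB23-9. Of 19 genes known as targets of serum response factor or as actin genes, 8 were higher and 1 lower, with a median of 0.1468, and 10 were not called. The 8 became 3 and 2 with si-NC replicate 1 and 2 left out, 4 without si-RAB23-1 replicate 1 and 5 without either si-RAB23-9 library. MYH9, the heavy chain of non-muscle myosin, rose by 0.34, and the abundant actin genes ACTB and ACTG1 by 0.19 and 0.20, calls lost without either si-NC library (limma adjusted p up to 0.0653 and 0.08), and reads of these near-identical genes could have been assigned to either. VCL, the focal adhesion gene of vinculin, fell by 0.22, a call kept only without si-RAB23-1 replicate 1 (limma adjusted p up to 0.135). MARCKS, whose product binds actin and is phosphorylated by protein kinase C, went from 35.3 and 38.0 to 83.8 and 83.2 FPKM (1.17, limma adjusted p = 0.00177). The CArG box, the site serum response factor binds, was found by letter match in 6 of 17 matched promoters of the actin list (35.3%), in 0.981% of the promoters of the genes compared and in 1.29% of all. Of these 6 genes 3 were called higher and 3 were not called. The list holds known targets of serum response factor, so its share is no independent finding, and over all genes compared the box lay in 1.23% of the promoters of higher genes and 1.56% of those of lower genes. The TPM4 and FLNA windows carry it in capitals, and EGR1, an immediate early gene, holds 2 copies:
TPM4, chr19:16067355-16067384, plus strand: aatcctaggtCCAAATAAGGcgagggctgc
FLNA, chrX:154374709-154374738, minus strand: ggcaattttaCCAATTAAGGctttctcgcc
EGR1, chr5:138465364-138465393, plus strand: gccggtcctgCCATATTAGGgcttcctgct
FLNA (filamin A) was higher by 0.24 and EGR1 by 0.41, with a limma adjusted p of 0.0877 and 0.103 without si-NC replicate 2. FLNA stayed called only without si-NC replicate 1, and EGR1 only without 1 or the other si-RAB23-9 library.

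Adhesion receptors and their signalling partners changed in both directions. TM4SF1, a four-span membrane protein gene, rose from 17.3 and 17.1 to 49.1 and 42.3 FPKM (log2 fold change 1.36, SE 0.070, limma adjusted p = 0.00184). ITGB1, the common beta subunit of many integrins, fell from 61.3 and 63.0 to 41.8 and 40.4 FPKM (-0.58, SE 0.037, limma adjusted p = 0.00211). ITGB8 rose by 0.52 and RAC1, the GTPase of lamellipodia, from 105 and 101 to 149 and 148 FPKM (0.52). Of 24 integrin and focal adhesion genes, 6 rose and 6 fell, and without either si-NC library 3 rose and 1 fell. Among 20 TGF-beta and SMAD targets, 6 rose and 5 fell, and 2 and 3 rose and 1 fell with si-NC replicate 1 and 2 left out. INHBA, a subunit gene of activin, rose from 1.24 and 1.16 to 3.81 and 3.30 FPKM (1.05) and CDKN2B, a cyclin-dependent kinase inhibitor, from 16.9 and 15.8 to 24.6 and 24.8 (0.57). The receptor gene TGFBR1 fell from 41.3 and 44.3 to 25.8 and 26.9 FPKM (-0.68, SE 0.046, limma adjusted p = 0.00224).

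Several cell junction genes were higher and others were not called. Desmosomes and hemidesmosomes anchor keratin filaments at cell borders and at the basement membrane, and 7 of their 12 genes rose, 5 were not called and 0 fell, with a median of 0.2426. The 7 became 4 without either si-NC library or si-RAB23-1 replicate 1. DSG3 (desmoglein 3) rose from 8.93 and 9.37 to 18.8 and 17.4 FPKM (log2 fold change 0.91, SE 0.057, limma adjusted p = 0.00211) and stayed at 9.63 and 9.00 with si-RAB23-9. PERP, a desmosome membrane protein gene, rose by 0.57 and the plakin gene DST by 0.42. Of 21 genes of adherens, tight and gap junctions, 7 rose, 13 were not called and 1 fell, and without either si-NC library 3 rose and 0 fell. The gap junction gene GJA1 (0.62), CLDN1 of tight junctions (0.46) and F11R, the adhesion molecule JAM-A (0.43), were higher. CDH1, the E-cadherin gene, read 86.1 and 87.3 against 80.9 and 84.0 FPKM and was not called. OCLN (occludin) fell by 0.28, a call lost with any 1 of the 6 libraries left out (limma adjusted p up to 0.116).

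Keratin and differentiation genes did not move as a block. KRT80 (chromosome 12, 52168996 to 52192000), an epithelial keratin, had the largest fall among called genes with a mean of at least 20 reads, from 136 and 127 to 47.3 and 49.98 FPKM (log2 fold change -1.42, SE 0.047, limma adjusted p = 0.000975). With si-RAB23-9 it read 96.1 and 98.1 FPKM. KRT6A, a keratin of wounded and hyperproliferative epithelium, rose from 3.69 and 4.30 to 9.73 and 8.79 FPKM (1.04), although reads of near-identical KRT6 genes could have been assigned to any of them. Of 14 keratins, 3 rose (21.43%) and 1 fell (7.143%). In the cornified envelope and squamous differentiation list, 6 of 15 fell, 3 rose and the median was -0.3099, and with si-NC replicate 2 left out 3 fell and 1 rose. EMP1, an epithelial membrane protein gene, fell from 37.8 and 36.4 to 23.9 and 21.2 FPKM (-0.70). PADI1, which citrullinates keratin-associated proteins, went from 13.2 and 12.02 to 7.77 and 7.81 (-0.63), and the protease gene KLK5 fell by 0.42. ANXA1, a phospholipid-binding annexin, rose from 94.7 in both control libraries to 158 and 143 FPKM (0.66). IVL, the envelope precursor involucrin, was higher by 0.31 (limma adjusted p = 0.0884 without si-NC replicate 2, and lost too without si-NC or si-RAB23-1 replicate 1). Of 25 factors of the squamous lineage, 6 rose and 4 fell. SOX2, an oesophageal lineage factor gene, rose from 35.8 and 40.6 to 59.2 and 66.2 FPKM (0.70) and JAG1, a Notch ligand gene, from 13.98 and 14.02 to 24.4 and 22.0 (0.69). TP63, the master regulator of stratified epithelium, was higher by 0.40 (limma adjusted p = 0.0517 without si-NC replicate 1). S100A4, a calcium-binding protein gene, fell from 12.3 and 11.4 to 6.54 and 6.93 FPKM (-0.73, SE 0.060, limma adjusted p = 0.00348), while it read 16.6 and 17.9 with si-RAB23-9.

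Many cell cycle genes were lower. The cyclin D1 gene CCND1 (chromosome 11, 69641087 to 69654474) dropped from 114 and 113 to 59.0 and 58.8 FPKM (log2 fold change -0.94, SE 0.028, limma adjusted p = 0.000975) and read 75.9 and 77.0 with si-RAB23-9. The kinase inhibitor CDKN1A (p21) fell from 113 and 106 to 65.9 and 72.3 FPKM (-0.66), while CDK6, a kinase partner of cyclin D, rose from 11.3 and 11.4 to 19.1 and 17.3 (0.63). Of 22 G1 genes, 6 fell and 3 rose. Of 49 genes of G2 and mitosis, 26 fell and 0 rose, with a median of -0.2247. The 26 became 5 without si-NC replicate 1, 4 without si-NC replicate 2, 15 without si-RAB23-1 replicate 2 and 17 without either si-RAB23-9 library, while the median stayed between -0.258 and -0.172 with any 1 library left out. CCNB1 (cyclin B1) went from 80.5 and 79.8 to 65.3 and 64.2 FPKM (-0.30, SE 0.029, limma adjusted p = 0.00425), and CDC20, an activator of the anaphase-promoting complex, from 134 and 131 to 109 in both (-0.28). UBE2S, a ubiquitin-conjugating enzyme of the same complex, fell by 0.40. The mitotic kinase genes PLK1 (-0.32) and AURKA (-0.38) were lower (limma adjusted p = 0.053 and 0.0975 without si-NC replicate 1, and 0.102 for AURKA without si-NC replicate 2). S phase and replication genes had 8 of 41 lower and 0 higher, or 1 and 0 lower with si-NC replicate 1 and 2 left out. Among them TK1 (thymidine kinase 1) went from 149 and 144 to 112 and 119 FPKM (-0.34, limma adjusted p = 0.0603 and 0.0512 without si-NC replicate 1 and 2). By the direct test, 31 of the 49 mitotic genes and 27 of the 41 replication genes were lower with si-RAB23-1 than with si-RAB23-9, and 0 and 1 were higher.

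Targets of p53, the DNA damage responsive tumour suppressor, included 8 lower and 1 higher gene of 28, with 4 and 3 lower when si-NC replicate 1 and 2 were left out. TP53INP1, a stress protein gene, fell from 10.3 and 10.8 to 3.47 and 3.98 FPKM (log2 fold change -1.30, SE 0.066, limma adjusted p = 0.00184). TRIAP1, which encodes an inhibitor of apoptosis, fell by 0.54, and MDM2, the ubiquitin ligase of p53, fell by 0.38 (limma adjusted p = 0.0506 without si-NC replicate 2). PLK2 was the 1 higher gene, from 33.6 and 34.5 to 57.0 and 51.1 FPKM (0.65). In the BCL2 and caspase list, 2 of 23 rose and 2 fell (8.696% each), near the shares over all genes tested (8.13% higher, 7.26% lower). BIRC3, an inhibitor of apoptosis gene, fell by 0.62 (limma adjusted p = 0.0512 without si-NC replicate 2).

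Further leading falls came from genes of varied roles. EPHA2, an ephrin receptor gene, fell from 101 and 91.4 to 49.4 and 50.6 FPKM (log2 fold change -0.93, SE 0.051, limma adjusted p = 0.00188). PIK3R3, a regulatory subunit gene of phosphoinositide 3-kinase, fell from 7.13 and 6.97 to 2.86 and 3.19 (0.429 times the control mean), and VAMP7, a vesicle SNARE gene, from 22.7 and 24.1 to 11.5 and 11.3 (-0.98). UBTD1 fell by 0.97. MIGA1, a mitochondrial fusion gene, fell by 0.95. SOCS1, an inhibitor of cytokine signalling, fell by 0.91, STK17B fell by 0.89 and EFR3A fell by 0.88. ELOVL5, an elongase of polyunsaturated fatty acids, fell from 40.1 and 42.2 to 22.2 and 21.9 FPKM (-0.87, SE 0.038, limma adjusted p = 0.00177) and read 43.1 in both si-RAB23-9 libraries. The sulphate transporter gene SLC26A2 fell by 0.87, SH3BGRL2 fell by 0.86 and the exonuclease gene ERI1 fell by 0.86. Histone gene HIST1H2BC (-1.20) and the alkaline phosphatase gene ALPP (-1.19) were called too, but both share reads with near-identical copies and were lost without either si-NC library (limma adjusted p up to 0.0829 and 0.0846).

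Many of these transcripts share a short sequence in the 3′ UTR. The 7-mer GACATAT came out of earlier results on these libraries, so its counts describe them and test nothing. Windows of 27 bases were taken from the longest annotated 3′ UTR (GENCODE 29, GRCh38), with the 7-mer in capitals. TP53INP1, HIST1H2BC, MIGA1, STK17B, SH3BGRL2 and ERI1, also carriers among the leading falls, are not shown. RAB23 holds 2 copies in its longest 3′ UTR and 1 in that of another annotated transcript. The windows of RAB23 and of other leading carriers that fell are:
RAB23, chr6:57189778-57189804, minus strand: ataaactctaGACATATattttgcaaa
RAB23, chr6:57188033-57188059, minus strand: cttttgcgtaGACATATcgctgtggaa
KRT80, chr12:52169713-52169739, minus strand: ggggatacaaGACATATaaagtatata
VAMP7, chrX:155943030-155943056, plus strand: tagacagtatGACATATagaattaata
UBTD1, chr10:97571154-97571180, plus strand: cctgtggacaGACATATctgcatattt
EPHA2, chr1:16124909-16124935, minus strand: ccttcggacaGACATATgggatattcc
ELOVL5, chr6:53267758-53267784, minus strand: aaccactcatGACATATcttagaaggt
SLC26A2, chr5:149983142-149983168, plus strand: gatgcttttaGACATATattaagtatg
Outside the capitals the windows differ as a set, though some share a few bases beside the 7-mer, as those of UBTD1 and EPHA2 do. Without the siRNA sequences, whether the 7-mer matches a seed was not tested.

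Of 10792 genes with an annotated 3′ UTR, 834 held the 7-mer there. Among these carriers 229 (27.46%) were lower and 32 (3.837%) higher with si-RAB23-1, with a median of -0.1115. Among the 9958 others 717 (7.2%) were lower and 1024 (10.28%) higher, with a median of 0.01504. The share of lower genes was 25.97% with 1 copy and 40.96% among 83 genes with at least 2 copies. It was 36.09% where a copy was followed by A and 24.17% otherwise. In 458 genes with the 7-mer only in the coding sequence it was 14.19%. Long 3′ UTRs hold any 7-mer more often, and carriers had a median 3′ UTR length of 3415 bases against 1256. Within length classes the shares of lower genes among carriers and others were 39.39% and 6.559% under 1000 bases, 36.49% and 7.776% from 1000 to 2000, 28.21% and 7.281% from 2000 to 4000, and 20.59% and 8.245% above. With si-RAB23-9 10.07% of carriers and 6.427% of the others were lower than si-NC, in a comparison that shares the control libraries, where over all genes tested 5.69% were lower and 7.56% higher. By length class these si-RAB23-9 shares of lower genes were 3.03% and 4.183% under 1000 bases, and 6.757% and 6.406% from 1000 to 2000. They were 9.286% and 9.348% from 2000 to 4000 bases, and 13.53% and 9.3% above. Among called genes with an annotated 3′ UTR, carriers were 14 of the 20 largest falls with si-RAB23-1, RAB23 included. They were 1 of the 20 largest rises, that of INHBA. In all, carriers made up 24.21% of the lower genes with a 3′ UTR. Without si-NC replicate 1 and replicate 2 the share of lower genes was 9.59% and 8.27% among carriers and 0.924% and 0.854% among the others.

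**Figure D3:**
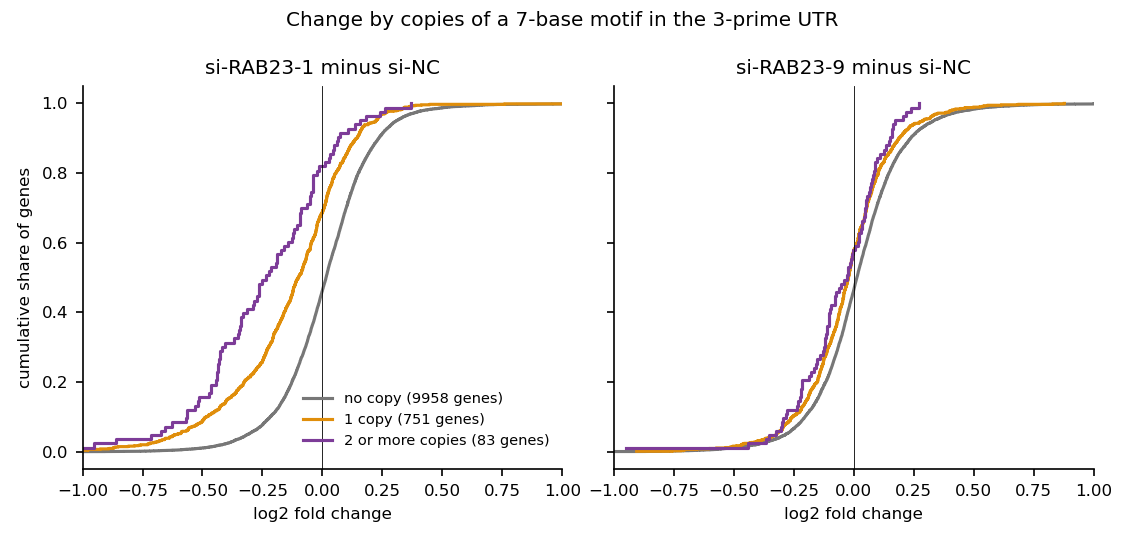
The curves give the cumulative share of genes by log2 fold change, for si-RAB23-1 (left) and si-RAB23-9 (right) against si-NC, with 9958 genes without the 7-base motif in the 3′ UTR (grey), 751 with 1 copy (orange) and 83 with at least 2 (purple). On the left the curves separate below 0 in the order of copies, with medians of 0.01504, -0.1005 and -0.2343, on a log2 axis cut at -1 and 1, and on the right they lie closer, at 0.01282, -0.02277 and -0.0293.

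The lower genes of several lists were carriers, and those of others were not. In the list of vesicle coats and adaptors 4 of the 5 lower genes were carriers, and 2 of the 2 lower Rab GTPases, RAB8B and RAB22A, were. Of the lower integrin and focal adhesion genes 2 of 6 were carriers, and of the lower p53 targets 3 of 8. ITGB1, TGFBR1, EMP1, TRIAP1, CDH5, LAMP2 and TRIB2, named elsewhere in the text, were lower carriers too. The 49 genes of G2 and mitosis and the 41 of S phase and replication included 0 carriers, so their 26 and 8 lower genes lay outside this group. These lists do not hold every cell cycle gene, and some lower carriers outside them are cell cycle genes too. TXNRD1, PIK3R3, CCND1 and SOCS1 fell and were no carriers by the longest annotated 3′ UTR.

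Lists around RAB23 itself had called shares on both sides of those over all genes tested (8.13% higher, 7.26% lower). The Hedgehog list, with the receptor gene PTCH1 (1.94 and 1.88 against 1.71 and 1.69 FPKM, not called) among its members, had 0 of 12 higher and 1 lower (8.333%), the kinesin gene KIF7 (-0.29, a call lost with any 1 of the 6 libraries left out, limma adjusted p up to 0.142). Of the list's 23 genes in the table, these 12 reached the level compared. Among 25 partners of RAB23 and genes of cilium trafficking 0 rose and 1 fell (4%), KIF3A, a motor subunit of intraflagellar transport, from 8.66 and 8.56 to 6.01 and 5.96 FPKM (log2 fold change -0.46, SE 0.042, limma adjusted p = 0.00398). Of 34 other Rab GTPase genes, which set the identity of vesicles and endosomes, 4 rose (11.76%) and 2 fell (5.882%), and 0 rose without either si-NC library. RAB8B, of transport to the surface, went from 6.91 and 6.81 to 3.54 and 4.13 FPKM (-0.70), RAB22A by -0.40, and RAB5A, of early endosomes, by 0.29. RAB8B and RAB22A had a limma adjusted p of 0.0501 and 0.052 without si-NC replicate 2, RAB22A 0.0517 and RAB5A 0.0973 without si-NC replicate 1, and RAB5A was also lost without si-NC replicate 2 or si-RAB23-1 replicate 1. Coat and adaptor genes were divided, with 5 of 31 higher and 5 lower (16.13% each), and 1 and 1 without either si-NC library. AP1S3, a subunit gene of the AP-1 clathrin adaptor, fell from 7.54 and 7.52 to 3.94 and 3.83 FPKM (-0.80) and CLTB, a clathrin light chain gene, rose by 0.36. Among 7 septins, filament-forming GTPases, 2 fell (28.57%) and 0 rose, led by SEPT10 (18.5 and 19.3 to 10.3 and 9.80 FPKM, -0.85).

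Redox, lipid and stress lists held both higher and lower genes. Over all genes tested 8.13% were higher and 7.26% lower, and the shares in several lists below were near these. Of 24 targets of NRF2, the factor of the oxidative stress response, 10 rose and 2 fell, and 4 and 3 rose with si-NC replicate 1 and 2 left out. HMOX1 (haem oxygenase) rose from 7.49 and 7.02 to 11.9 and 12.1 FPKM (log2 fold change 0.66), malic enzyme ME1 by 0.60 and FTL, a ferritin chain, by 0.29. TXNRD1 (thioredoxin reductase 1), a target of the same factor, fell from 130 and 128 to 73.2 and 69.6 FPKM (-0.84, SE 0.040, limma adjusted p = 0.00184). Of 30 genes of cholesterol and fatty acid synthesis 4 fell (13.33%) and 1 rose (3.333%). The amino acid starvation list had 5 of 25 higher (20%), among them TRIB3 (0.44), and 5 lower (20%). Of 21 genes of the unfolded protein response 3 fell (14.29%) and 1 rose (4.762%). In the autophagy and lysosome list 4 of 30 rose (13.33%), with GABARAPL1 (32.2 and 32.5 to 52.2 and 48.1 FPKM, 0.62) in the lead. In that list 2 fell (6.667%), of which LAMP2, a lysosomal membrane protein gene, changed by -0.48. Proteasome subunits had 1 of 32 lower (3.125%) and 0 higher. Nuclear respiratory chain genes had 4 of 42 higher (9.524%) and 1 lower (2.381%), and mitochondrially encoded mRNAs 2 of 13 lower (15.38%) and 0 higher.

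Genes of the response to double-stranded RNA were called at shares on both sides of those over all genes tested. Of 39 interferon-stimulated genes, the antiviral set induced through type I interferon, 5 were higher (12.82%) and 1 lower (2.564%), with a median of 0.0865. With si-NC replicate 1 and 2 left out 1 and 0 were higher. Of 12 sensors of double-stranded RNA 2 were higher (16.67%) and 1 lower (8.333%), and 0 were called without either si-NC library. ISG15 read 121 and 103 FPKM in the control libraries, 119 and 125 after si-RAB23-1 and 201 and 207 after si-RAB23-9. IFI44 was higher by 0.34 (limma adjusted p = 0.0559 without si-NC replicate 2), at 33.0 and 32.2 FPKM against 63.9 and 61.5 with si-RAB23-9. In the direct test 32 of the 39 were lower with si-RAB23-1 than with si-RAB23-9 and 0 higher. CXCL8, the neutrophil chemokine gene interleukin 8, rose from 4.48 and 3.87 to 9.08 and 8.11 FPKM (log2 fold change 0.89, SE 0.093, limma adjusted p = 0.00544). In the RNA interference machinery 2 of 13 genes rose (15.38%) and 3 fell (23.08%), or 0 and 1 without si-NC replicate 1 and 0 and 0 without si-NC replicate 2. DICER1, which cuts microRNA precursors, went from 11.03 and 11.5 to 7.06 and 6.46 FPKM (-0.66, limma adjusted p = 0.0509 without si-NC replicate 2) and carries 2 copies of the 7-mer. AGO2, the slicing Argonaute, read 18.7 and 19.6 against 18.4 and 17.8 FPKM and was not called.

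**Figure D4:**
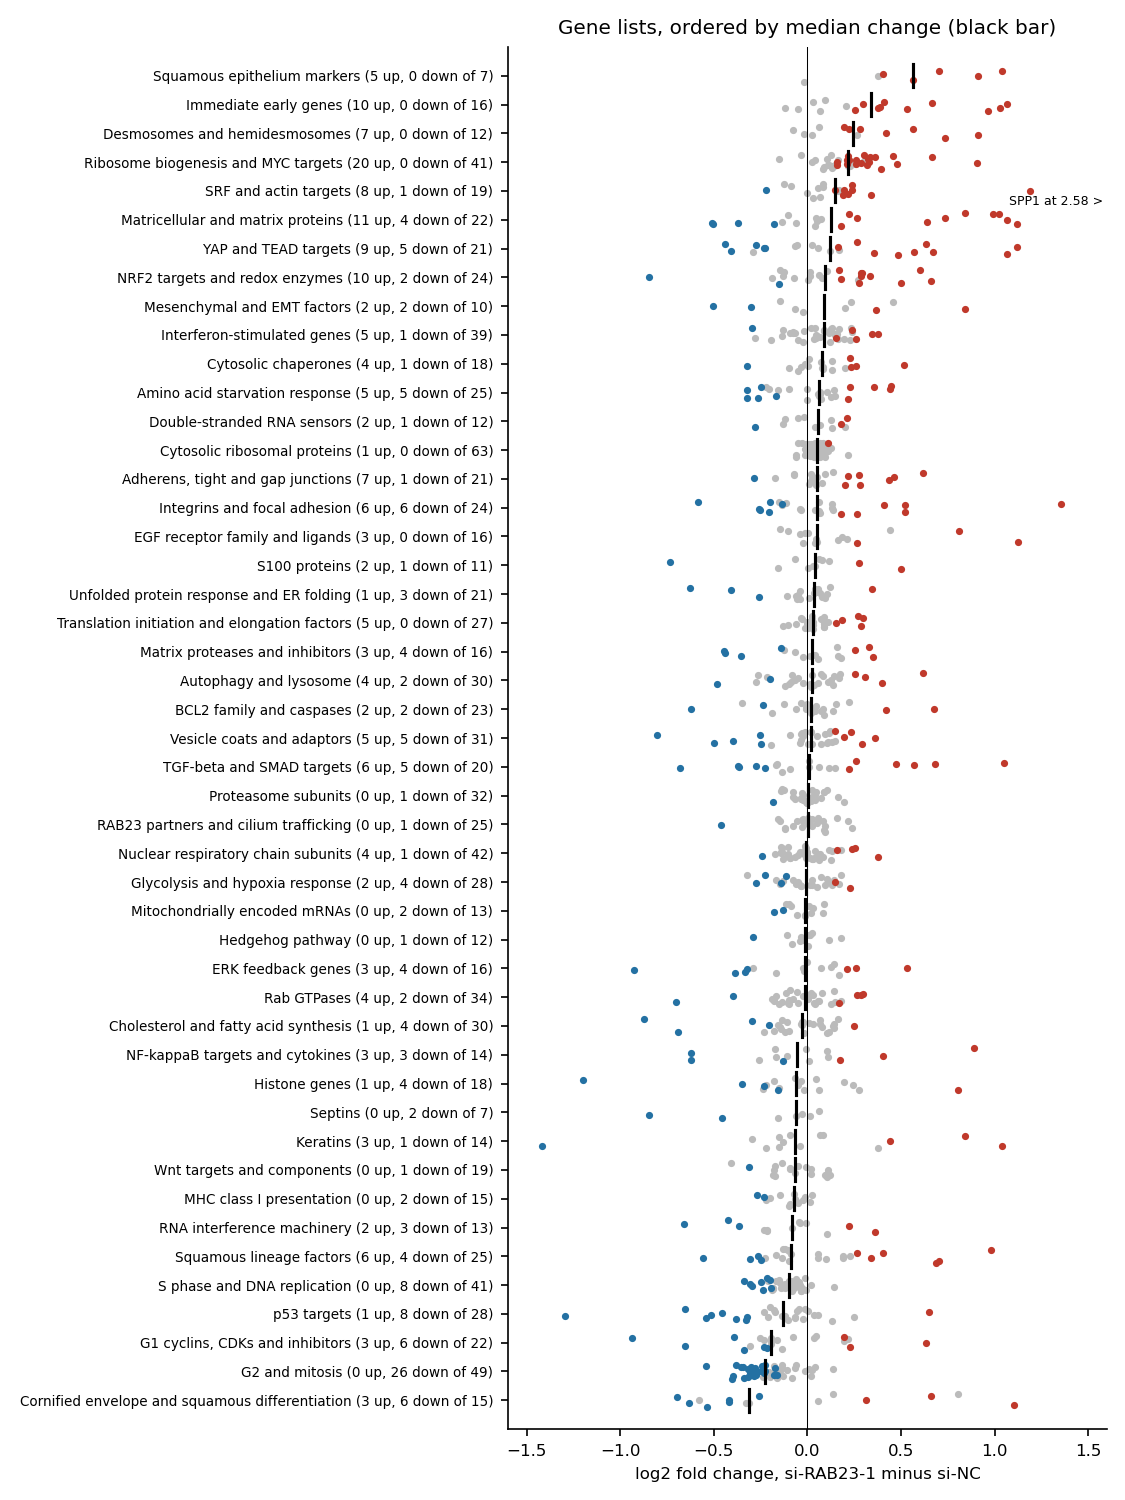
Each row is a gene list with at least 7 members and each point 1 member at its log2 fold change with si-RAB23-1, red where called higher, blue where called lower and grey otherwise, with a black bar at the list's median and the counts beside the name. The medians of immediate early genes (10 up, 0 down of 16) and desmosomes (7 up, 0 down of 12) lie to the right of 0, with members on both sides, and that of G2 and mitosis (0 up, 26 down of 49) to the left, while the medians of Hedgehog, cilium and proteasome lists sit near 0.

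The siRNAs were compared directly, in a contrast from which si-NC cancels. Over all genes tested 21.0% were called different, and of the 13935 genes compared here si-RAB23-1 had the higher level for 1420 and the lower for 1573. Of the 1166 genes higher with si-RAB23-1 than with si-NC, 493 were also above si-RAB23-9 by this test, 627 were not called different and 46 were further up with si-RAB23-9. Of the 1041 lower genes, 615 were also below si-RAB23-9, 409 were not called different and 17 were further down with si-RAB23-9. A gene that is not called different is not shown to act alike. Among the 16 called genes with the largest differences, 7 had a mean of at least 20 reads per library. SPP1 differed by -1.91 (si-RAB23-9 minus si-RAB23-1), CTGF by -1.51, CYR61 by -1.48, S100A4 by 1.24 and TRIB2, a pseudokinase gene, by 1.02, with limma adjusted p between 0.00116 and 0.00366. The same test gave the uncharacterised gene AC089983.1 -1.30 and the keratin pseudogene KRT16P2 1.17, whose reads its parent gene family may share. Against si-NC, AC089983.1 (0.71), TRIB2 (-0.56) and KRT16P2 (-0.43) lost their calls without 4 or more of the libraries (limma adjusted p up to 0.11, 0.109 and 0.146). DDX21, an RNA helicase gene of the nucleolus, was at 47.2 and 49.4 FPKM in control cells, at 64.4 and 58.0 after si-RAB23-1 and at 34.5 and 32.9 with si-RAB23-9. CAV1, the gene of caveolin, read 105 and 108, then 148 and 136, then 84.4 and 80.2 FPKM. For these genes and for CDKN2B and TP63 the control libraries lay between those of the siRNAs. Against si-NC, DDX21 (0.34) and CAV1 (0.41) were lost without either si-NC library, and DDX21 without si-RAB23-1 replicate 1 (limma adjusted p up to 0.111 and 0.0609). TPM4 and NOLC1 were not called different (limma adjusted p = 0.156 and 0.0888), and the differences were -0.14 (SE 0.062) and -0.15 (SE 0.049).

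**Figure D5:**
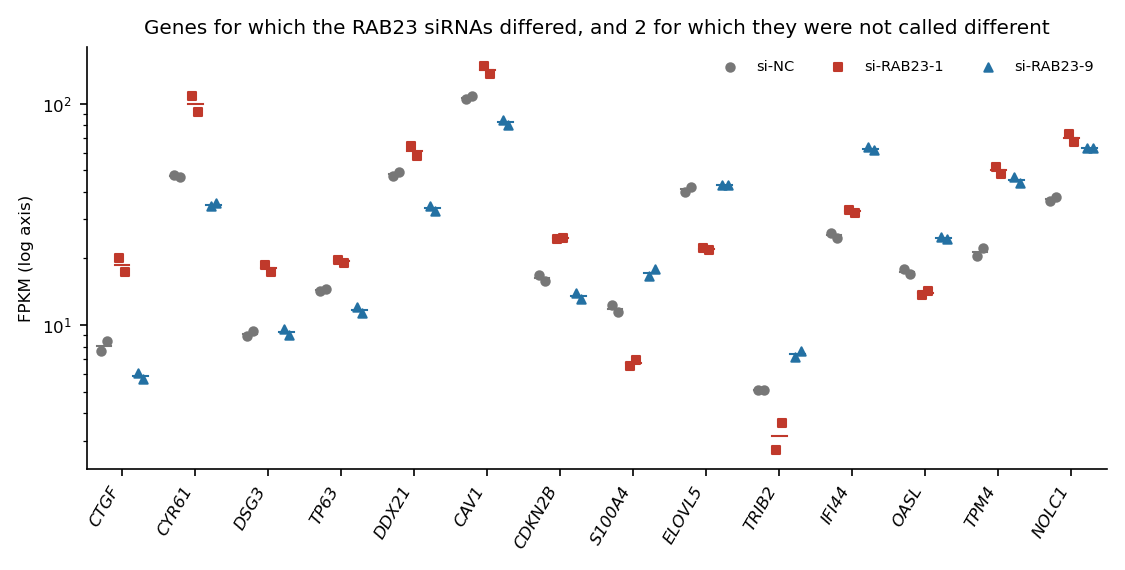
Points are FPKM of single libraries (log axis) and short lines group means, for si-NC (grey circles), si-RAB23-1 (red squares) and si-RAB23-9 (blue triangles). From CTGF to CDKN2B the si-RAB23-1 libraries lie above si-RAB23-9, from S100A4 to OASL below, and for TPM4 and NOLC1 both siRNAs lie above the control, at 43.7 to 51.9 and 63.1 to 73.1 FPKM.

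Of 10849 protein-coding genes 9.76% were higher and 8.78% lower. Of 714 antisense genes 3.78% were higher and 2.38% lower, and of 527 lincRNA genes 5.31% and 2.66%. Shares of calls differed by level, and these classes were not compared at like levels. Among those with a mean of at least 20 reads the leading ones were AP001628.1 (0.83), AC010275.1 (0.81) and LINC02065 (0.69) on the higher side, and AC018410.2 (-0.88), the pseudogene MEMO1P1 (-0.84) and AP005233.2 (-0.77) on the lower side. AP001628.1 was lost without si-NC replicate 2 (limma adjusted p = 0.0627) and the others with all but 1 of the 6 libraries left out in turn (up to 0.186). AC245041.2, with 767 and 642 reads against 902 and 1176, rose by 0.68. The sources used here do not state whether counting used strand, so reads of overlapping genes cannot be told apart. The 12 genes of largest fold that were at 1 FPKM or more in both libraries of 1 group and under 1 in both of the other had 0 to 8 reads in a library, too few for a fold to be given.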

How the data were processed

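RNA-seq of 6 KYSE30 libraries was analysed. The deposited table gives 1 FPKM per gene and library, made by the authors; the submitters' processing notes name, without roles, the build hg19, the aligner STAR 2.5.1b, the quantifier RSEM 1.2.29, edgeR 3.8.5, and for read quality Trimmomatic 0.36 and FastQC. Coordinates in the table equal those of GENCODE 29 on GRCh38 for 58735 of 58735 genes, so GRCh38 is used here. Divided by a unit fitted for each library, FPKM times gene length gave whole reads within 0.01 read for 100% of values, and the FPKM denominator this implies was 0.963 to 0.990 of the reads so recovered. Here limma 3.58.1 (R 4.3.3) was fitted to log2(FPKM + 1) over all 6 libraries, 1 mean per group with a trended variance, for genes at 1 FPKM or more in at least 2 of the 6, with Benjamini-Hochberg adjustment and calls at an adjusted p under 0.05. The fit was run on simulated reads whose added spread was set alike in every gene and library. The spread between the real replicates differed by group, so that run does not give the error rate of these calls. Alternatives changed the pseudocount, filter, scaling, samples and model, and list counts were recomputed under each. The text names RAB23, the 20 called genes of largest change in each direction with at least 20 reads, up to 6 called genes and the first 2 of each list, leading non-coding genes, leading differences between siRNAs and leading carriers of the 7-mer. CDC20, COL12A1, DDX21, LAMB1, NAT10, PES1, RRP9, TNC, UTP20 and the genes of the closing section were chosen after their values were seen. The members and lists were chosen with earlier results of these data known.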

Additional observations from a re-analysis of the deposited data

How the results depend on the processing

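With no filter 497 genes were higher and 442 lower, 7 fell by at least 1 on the log2 scale and 1323 differed between the siRNAs. With only the si-NC and si-RAB23-1 libraries 633 were higher and 601 lower, and with no variance trend 743 were higher. With voom on library totals 2165 were lower, and 37 rose and 49 fell by at least 1. With voom on median-of-ratios sizes 1873 were higher and 1904 lower, 40 and 46 by at least 1. Counts past 1 were 37 higher and 48 lower at a pseudocount of 0.1, 28 lower at 0.5, and 12 and 5 with a mean FPKM of at least 5. Leaving out 1 library at a time gave 173 to 947 higher and 163 to 865 lower genes, 16 to 29 and 5 to 40 past 1, and 702 to 2672 that differed between the siRNAs. RAB23 kept its call at -1.65 to -1.04 in every fit that tested it, and the mean FPKM filter left it out. The share of lower genes among 7-mer carriers was 8.27% to 21.2% with 1 library left out, an alternative chosen after seeing the data. With a replicate block 856 genes were higher and 797 lower. Correlations of same-numbered libraries' deviations were -0.0562, -0.0158 and 0.061, which cannot show whether those libraries shared a culture or batch. Counts within lists moved most often without a control library: without si-NC replicate 2 the count of higher members moved by more than 1.5 times, or to or from 0, in 35 of 50 lists and that of lower members in 38. Uncalled genes near 0 changed sign. EGFR went to -0.05 with quantile normalization, -0.03 with voom on library totals or without si-RAB23-1 replicate 1, and -0.00 with median-of-ratios scaling or sizes (-0.03 to 0.04 with 1 library left out). FOS ranged from -0.12 to 0.18 with 1 library left out, at -0.07 when si-NC replicate 2 was the one. The cause was not tested. Leaving out a library of a group of 2 assumes that the lone library varies like the others.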

Other observations

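Transcription factor families were counted from the family names in the deposited table, a grouping chosen after the data were seen. Of 861 factor genes at the level compared, 79 were higher and 63 lower with si-RAB23-1, with a median of 0.01668. Over all genes tested 8.13% were higher and 7.26% lower, with a median of 0.008331. In the ETS family, whose members bind GGAA-centred sites, 7 of 16 were lower and 1 was higher, with a median of -0.1558. ELF4 read 19.4 and 19.6 FPKM in the control libraries, 12.4 and 12.9 after si-RAB23-1 and 18.4 and 18.2 after the other siRNA (log2 fold change -0.59, SE 0.038, limma adjusted p = 0.00221), a call kept without each library in turn. EHF, an epithelial member, went from 4.62 and 4.53 to 2.93 and 2.65 FPKM (-0.56, limma adjusted p up to 0.078 without either si-NC library), and ETS2 was the 1 higher gene (0.21, up to 0.103 likewise). C2H2 zinc finger genes had 26 of 360 higher and 8 lower, both below the shares over all genes tested, with a median of 0.04298. Helix-loop-helix genes were divided, with 6 of 46 higher, MYC among them, and 9 lower. No hypothesis was tested on these counts.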
